A study of Mus musculus with 13 samples.

Results

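Interferon-stimulated genes are the genes that cells switch on when interferon reaches its receptor, and the 50 described here were taken by name from the mouse set known for this response: RNA and DNA sensors, interferon regulatory factors, Ifit and Oas proteins, interferon-inducible GTPases, the ISG15 and ubiquitin system, ADP-ribosylation enzymes, membrane restriction factors, Schlafen proteins and others. The choice was made with earlier results of these data known. Of the 50, 48 had an entry among the 53832 of the expression tables. Of these, 46 reached a mean of 0.5 TPM over the 13 libraries and were tested, among 18612 genes at that level. Oasl1 and Ifi207 were below it, at highest values of 0.762 and 1.05 TPM in any library, and Rtp4 and Herc6 were not analysed here. TPM, the unit of the deposited values, is a length-scaled share of a library's transcripts, so levels of different genes can be set side by side.

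The libraries are poly(A) RNA from cortex of the right hemisphere of perfused mice, in 3 groups: 6 of wild-type (WT) mice on distilled water, 3 of APP/PS1 mice on distilled water and 4 of APP/PS1 mice on trazodone. Sample titles state 2 weeks for every library. APP/PS1 mice carry transgenes for amyloid precursor protein and presenilin 1 and deposit amyloid plaques; which APP/PS1 line was used, its promoter, the dose of trazodone and the age and sex of the mice are not given in the sources that were used. Trazodone is a drug against depression that antagonises serotonin receptors and slows serotonin uptake. There was no WT group given trazodone, so an effect of the drug can be read only within APP/PS1 mice. The labels number the libraries of a group as replicates without saying that each is a separate mouse, so p-values measure the spread between these libraries.

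As background, type I interferons act through the receptor chains IFNAR1 and IFNAR2 and the kinases JAK1 and TYK2, which activate a transcription factor complex that includes STAT2 and IRF9. The complex binds the interferon-stimulated response element (ISRE) in promoters, whereas interferon gamma acts largely through the gamma-activated site (GAS). In amyloid models, an interferon response has been described in a subset of microglia near plaques, and in astrocytes, neurons and vessels to differing degrees.

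The label of the APP/PS1 groups was borne out by App, whose level was 905 ± 121 TPM in WT water, 1928 ± 188 in APP/PS1 water and 2702 ± 185 in APP/PS1 trazodone, and by Prnp, whose promoter drives some APP/PS1 transgenes (912 ± 37.6, 3254 ± 79.6 and 3057 ± 153 TPM; mean ± SD). The neuronal glutamate transporter Slc17a7 stood at 851, 602 and 788 TPM in the same order. Depth, estimated from the regular spacing of low values of single-exon genes, was about 30.9 to 37.3 M fragments per library. The spacing was weak: 35.6 to 45.7% of these values per library lay within 0.1 of a whole number of fragments, so depth is approximate. In APP/PS1 water, genes of high GC content read lower: the slope of log2 TPM per 10 percentage points of GC was -0.195 ± 0.0365, where WT water had 0.0390 ± 0.0493 and the trazodone group 0.0881 ± 0.0505. Calls and median fold changes were therefore also made after a correction for GC content and length; counts of groups that do not overlap, positions of single libraries and fits without a library were made on uncorrected values alone. Transcripts of the mitochondrial genome (symbols that begin with mt-) took 13.1 to 15.01% of TPM in APP/PS1 water, 9.07 to 12.3% in WT water and 8.96 to 10.7% in the trazodone group, so that APP/PS1 water lay above both. WT water 3 and 6 carried the choroid plexus transcript Ttr at 471 and 2151 TPM against 5.92 to 23.6 TPM in the other libraries. APP/PS1 trazodone 2 stood apart for the interferon-stimulated genes themselves, as described further on.

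The cortex of APP/PS1 mice given water held more transcript of many interferon-stimulated genes than WT cortex. Of the 46 genes tested, 21 rose, 1 fell and 24 were not called at an adjusted p under 0.05 (limma on log2(TPM + 0.5), Benjamini-Hochberg over all 18612 genes); without adjustment 29 passed. Among all genes tested, 6.19% were called higher and 17.5% lower in this comparison. The set was chosen with earlier results of these data known, so these shares are set beside its counts as a description only. The log2 fold change was positive for 40 of the 46, with a median of 0.56 against -0.10 for all genes tested. Throughout, ± after a log2 fold change is its standard error from limma, and ± after a TPM is the SD. After the correction for GC content and length, 22 rose and none fell, against 6.38% and 6.30% of all genes, and the median was 0.62 against -0.02. All 3 APP/PS1 water libraries lay above all 6 WT libraries for 16 of the 46 genes and below them for 1, where 6.55% and 16.5% of all genes did so. Without WT water 3 or 6, the libraries with Ttr, 18 or 22 genes rose (5.34% or 6.98% of all genes). The part of the higher mitochondrial share of the APP/PS1 water libraries in these differences was not tested. Bulk RNA cannot tell more cells that express a gene from more RNA per cell.

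**Figure D1:**
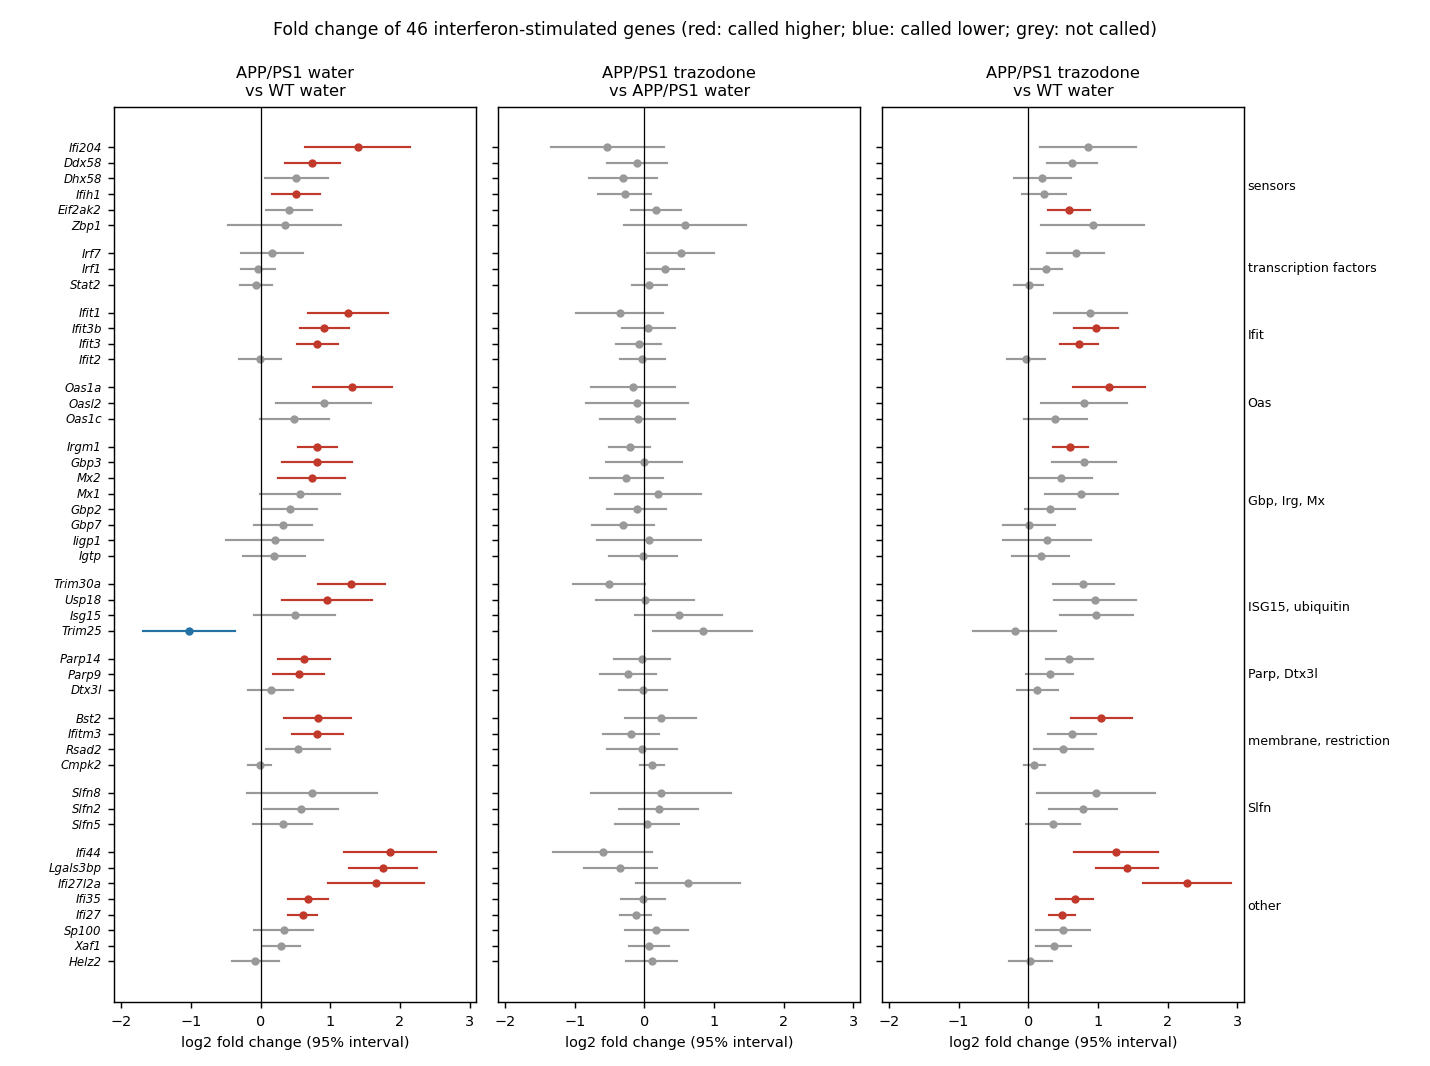
Log2 fold change of the 46 tested genes (points) with 95% intervals (lines) in the 3 comparisons, grouped by class; red marks genes called higher and blue the gene called lower. In APP/PS1 water against WT water 21 points are red and 1 is blue, in trazodone against water within APP/PS1 mice every point is grey, and in APP/PS1 trazodone against WT water 11 are red.

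Transcripts of the interferons themselves were at or near nothing. None of 21 interferon ligand genes reached the minimum of 0.5 TPM, and 15 were listed at 0 in every library. Ifnb1, the first type I interferon made in many cells, was listed at 0 in all libraries but 1 WT library, where it was at 0.112 TPM, and Ifng was listed at 0 in all WT and APP/PS1 water libraries and reached 0.110 TPM in a single trazodone library. The 21 ligands summed to 0 in all 3 APP/PS1 water libraries, 0 to 0.190 TPM in WT and 0.00913 to 0.312 TPM in the trazodone group.

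Of 8 receptor and signal-transducer genes tested, 3 rose and none fell in APP/PS1 water against WT (median 0.03, beside -0.10 for all genes). Of all genes, 6.19% rose and 17.5% fell in this comparison. Ifnar2, a chain of the type I receptor, went from 28.8 to 41.9 TPM (log2 fold change 0.53 ± 0.08, adjusted p = 0.000256), whereas its partner Ifnar1 gave -0.16 ± 0.13, adjusted p = 0.408. Stat3, which several cytokine receptors activate, gave 0.38 ± 0.09, adjusted p = 0.00712. Ifngr1, the ligand-binding chain of the interferon gamma receptor, rose from 13.1 ± 1.58 TPM in WT to 18.9 ± 1.95 TPM in APP/PS1 water and was 12.5 ± 2.27 TPM in APP/PS1 trazodone; it was called higher in the first comparison (0.51 ± 0.13, adjusted p = 0.0131) and lower with trazodone (-0.59 ± 0.14, adjusted p = 0.0141). Without APP/PS1 water 2, neither was called (adjusted p = 0.0675 and 0.0623). Ifngr2, its signalling partner, gave 0.06 ± 0.07 and 0.22 ± 0.08, and neither was called. Irf9 was not analysed here.

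Among the sensors of foreign or misplaced nucleic acid, 3 of 6 tested genes rose in APP/PS1 water. Ifi204 was at 0.0931, 0.175 and 0.264 TPM (lowest, median and highest library) in WT water, at 1.88, 2.13 and 0.359 TPM in APP/PS1 water 1 to 3 and at 1.197, 0.166, 0.757 and 1.02 TPM in APP/PS1 trazodone 1 to 4. Its product is a DNA-binding protein of the PYHIN family. APP/PS1 water 1 and 2 stood far above WT and APP/PS1 water 3 just above it, and APP/PS1 trazodone 2 was inside the WT range. The log2 fold change was 1.39 ± 0.35, adjusted p = 0.0106, and the call was lost without APP/PS1 water 1 or 2. 16.8% of the 100-base windows of Ifi204 also occur in other genes, mainly in Ifi211, so its reads can be split between them.

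Ddx58, which encodes RIG-I, the sensor of short uncapped RNA, rose from 4.23 ± 1.26 TPM to 7.25 ± 1.06 TPM (SD, n = 6 and 3; log2 fold change 0.74 ± 0.18, adjusted p = 0.00986). Ifih1, which encodes MDA5, the sensor of long double-stranded RNA, also rose (0.51 ± 0.16, adjusted p = 0.0357). Dhx58, the regulatory member of the same helicase family, gave 0.51 ± 0.21, adjusted p = 0.0959, and 0.69 with adjusted p = 0.0461 after the correction for GC content and length. Eif2ak2, the RNA-activated kinase PKR that halts translation, gave 0.41 ± 0.15, adjusted p = 0.0683, and the Z-nucleic acid sensor Zbp1 0.34 ± 0.38, adjusted p = 0.554.

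None of the 3 transcription factors of the set was called in APP/PS1 water against WT. Stat2, a subunit of the ISRE-binding complex, was at 20.8 ± 2.16 TPM in WT and 19.8 ± 2.23 TPM in APP/PS1 water (-0.07 ± 0.11, adjusted p = 0.703). Irf1, an early factor of the interferon gamma response, gave -0.04 ± 0.12, adjusted p = 0.848. Irf7, the factor that amplifies type I interferon production, was at 1.86, 1.96 and 2.66 TPM (lowest, median and highest) in WT and at 2.43, 2.56 and 2.38 TPM in APP/PS1 water, and these groups overlapped (0.16 ± 0.21, adjusted p = 0.619). The 95% intervals were -0.29 to 0.16, -0.29 to 0.21 and -0.28 to 0.61 on the log2 scale. After the correction for GC content and length, the sign turned for Stat2 (log2 fold change 0.10, adjusted p = 0.466) and Irf1 (0.11, adjusted p = 0.582), and Irf7 gave 0.40 (adjusted p = 0.260).

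Ifit proteins bind viral RNA that lacks the marks of host mRNA, and 3 of the 4 genes rose. Ifit2, Ifit3, Ifit3b and Ifit1 lie in that order on chromosome 19 (Ifit2 at chr19:34550694-34576419, Ifit3 at chr19:34583531-34588731, Ifit3b at chr19:34607970-34613401 and Ifit1 at chr19:34640871-34650009, all on the plus strand of GRCm38). Ifit1 was at 1.06, 1.87 and 3.39 TPM (lowest, median and highest library) in WT water, at 6.17, 6.24 and 4.13 TPM in APP/PS1 water 1 to 3 and at 4.47, 2.68, 4.505 and 5.28 TPM in APP/PS1 trazodone 1 to 4. Every APP/PS1 water library exceeded every WT library, and APP/PS1 trazodone 2 fell within the WT range (1.25 ± 0.27, adjusted p = 0.00412 for APP/PS1 water against WT). Ifit3b was at 4.14, 4.68 and 5.48 TPM (lowest, median and highest library) in WT water, at 10.5, 9.31 and 8.34 TPM in APP/PS1 water 1 to 3 and at 10.2, 6.82, 10.4 and 12.4 TPM in APP/PS1 trazodone 1 to 4. Both APP/PS1 groups lay wholly above WT (0.92 ± 0.16, adjusted p = 0.00119). Ifit3, its near copy, gave 0.82 ± 0.14, adjusted p = 0.000869; 31.7% of the 100-base windows of Ifit3 occur in Ifit3b, so reads of this pair cannot be told apart in full. Ifit2, their neighbour, was at 8.06 ± 0.811 TPM in WT and 8.13 ± 1.83 TPM in APP/PS1 water (-0.01 ± 0.14, adjusted p = 0.983, 95% interval -0.31 to 0.30).

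Promoters were read for 38 of the 50 genes from RefSeq (GRCm38.p6), as 250 bases before to 50 bases after the annotated start. Capitals mark every match to the ISRE core GAAANNGAA (TTCNNTTTC on the opposite strand) or to the GAS TTCNNNGAA, which reads the same on both strands; ISRE matches may overlap each other. The first 4 genes shown rose in APP/PS1 water, Isg15 holds 3 ISRE matches and was not called, and Lgals3bp had the second-highest fold change with no match. The windows are chr19:34640639-34640938 (plus strand) for Ifit1, chr19:34583279-34583578 (plus) for Ifit3, chr19:34607707-34608006 (plus) for Ifit3b, chr5:120907476-120907775 (minus) for Oas1a, chr4:156200769-156201068 (minus) for Isg15 and chr11:118401910-118402209 (minus) for Lgals3bp, each printed 5′ to 3′ in the gene's own direction.
Ifit1: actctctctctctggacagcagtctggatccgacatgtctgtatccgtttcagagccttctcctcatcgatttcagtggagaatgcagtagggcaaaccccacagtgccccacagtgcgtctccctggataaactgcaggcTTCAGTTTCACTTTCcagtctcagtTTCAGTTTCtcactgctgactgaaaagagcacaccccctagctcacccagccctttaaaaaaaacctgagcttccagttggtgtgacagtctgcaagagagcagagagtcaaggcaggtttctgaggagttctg
Ifit3: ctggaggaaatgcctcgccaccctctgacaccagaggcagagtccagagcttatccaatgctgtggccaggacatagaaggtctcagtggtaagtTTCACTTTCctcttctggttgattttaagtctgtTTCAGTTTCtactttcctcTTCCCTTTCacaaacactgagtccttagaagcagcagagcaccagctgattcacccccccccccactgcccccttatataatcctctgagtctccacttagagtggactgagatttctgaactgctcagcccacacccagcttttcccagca
Ifit3b: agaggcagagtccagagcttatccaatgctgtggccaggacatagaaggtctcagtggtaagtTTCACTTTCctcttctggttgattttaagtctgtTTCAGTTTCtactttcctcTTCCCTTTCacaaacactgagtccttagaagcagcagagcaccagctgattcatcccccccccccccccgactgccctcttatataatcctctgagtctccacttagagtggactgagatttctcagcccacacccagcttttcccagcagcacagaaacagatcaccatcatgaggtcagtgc
Oas1a: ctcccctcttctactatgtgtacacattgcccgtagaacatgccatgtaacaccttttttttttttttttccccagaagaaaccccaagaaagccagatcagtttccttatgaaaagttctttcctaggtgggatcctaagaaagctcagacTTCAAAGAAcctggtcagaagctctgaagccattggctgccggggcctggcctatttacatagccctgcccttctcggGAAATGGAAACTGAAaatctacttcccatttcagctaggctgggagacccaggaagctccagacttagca
Isg15: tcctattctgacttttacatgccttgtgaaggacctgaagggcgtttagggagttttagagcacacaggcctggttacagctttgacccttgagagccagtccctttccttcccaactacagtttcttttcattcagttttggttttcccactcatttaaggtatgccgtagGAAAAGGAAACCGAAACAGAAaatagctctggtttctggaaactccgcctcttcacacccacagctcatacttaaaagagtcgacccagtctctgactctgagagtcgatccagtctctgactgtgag
Lgals3bp: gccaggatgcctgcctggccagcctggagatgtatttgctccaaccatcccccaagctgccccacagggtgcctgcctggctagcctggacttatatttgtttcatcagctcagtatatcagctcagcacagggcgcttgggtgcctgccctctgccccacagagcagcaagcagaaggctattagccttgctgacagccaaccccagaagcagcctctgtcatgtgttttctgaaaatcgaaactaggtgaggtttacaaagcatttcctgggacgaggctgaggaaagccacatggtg

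The ISRE core stood in the window of 24 of the 38 genes (63.2%), against 9.76% of the 27025 genes with a promoter in the table. It stood in 12 of the 14 genes with a promoter that rose in APP/PS1 water and in 10 of the 20 that were not called. The GAS stood in 9 of the 38 (23.7%, against 9.55% of all), in 4 of the 14 and in 5 of the 20. In Ifit3 and Ifit3b the same 3 ISRE cores (TTCACTTTC, TTCAGTTTC and TTCCCTTTC) recur with the same spacing, first at -155, -121 and -102 from the start of Ifit3 and then at -187, -153 and -134 from that of Ifit3b. In Isg15, matches begin at -78, -72 and -66 and overlap. In Oas1a, overlapping ISRE matches begin at -20 and -14, and a GAS match begins at -98. A match of letters is not a measured binding site, and binding was not measured here.

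Oas enzymes make oligoadenylates that activate RNase L to cut RNA, and 1 of 3 tested genes rose. Oas1a was at 0.661, 1.02 and 1.32 TPM (lowest, median and highest library) in WT water, at 4.39, 2.62 and 2.57 TPM in APP/PS1 water 1 to 3 and at 3.49, 1.33, 3.37 and 3.31 TPM in APP/PS1 trazodone 1 to 4. All APP/PS1 water libraries were above WT, and of the trazodone libraries number 2 came down to just above the WT range (1.32 ± 0.26, adjusted p = 0.00254); 40.9% of the windows of Oas1a occur in Oas1g. Oasl2 was at 2.43, 3.44 and 5.37 TPM (lowest, median and highest library) in WT water, at 11.7, 7.26 and 4.63 TPM in APP/PS1 water 1 to 3 and at 8.65, 3.82, 9.73 and 6.57 TPM in APP/PS1 trazodone 1 to 4. APP/PS1 water 3 and trazodone 2 were inside the WT range, and the difference from WT missed the threshold (0.91 ± 0.32, adjusted p = 0.0526). Oas1c gave 0.48 ± 0.23, adjusted p = 0.148.

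Among interferon-inducible GTPases, those of the Gbp and Irg families act on the membranes of vacuoles that hold pathogens. Of the 8 GTPase genes, which include Mx1 and Mx2, 3 rose. Irgm1, which also regulates autophagy, was at 8.45, 11.1 and 11.97 TPM (lowest, median and highest) in WT, at 19.3, 18.7 and 18.2 TPM in APP/PS1 water and at 18.4, 13.1, 15.7 and 17.9 TPM in trazodone libraries 1 to 4, with both APP/PS1 groups wholly above WT (0.81 ± 0.13, adjusted p = 0.000543). Gbp3, a guanylate-binding protein, gave 0.81 ± 0.24, adjusted p = 0.0232, and its call was lost without APP/PS1 water 1 or 2. Mx2, annotated as a polymorphic pseudogene in GENCODE M21, gave 0.73 ± 0.23, adjusted p = 0.0304, and its antiviral paralogue Mx1 0.57 ± 0.27, adjusted p = 0.145. The remaining 4 (Gbp2, Gbp7, Igtp and Iigp1) ranged from 0.19 to 0.42 on the log2 scale and were not called. Igtp lies within 1000 bases of Irgm2, which was not analysed here, and its value can include reads of Irgm2.

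ISG15 is a ubiquitin-like protein that is attached to other proteins and removed by USP18, which also damps the type I receptor. Usp18 was at 1.47, 1.67 and 3.197 TPM (lowest, median and highest library) in WT water, at 6.29, 2.58 and 3.98 TPM in APP/PS1 water 1 to 3 and at 5.51, 2.09, 5.53 and 4.13 TPM in APP/PS1 trazodone 1 to 4. APP/PS1 water 2 and trazodone 2 lay inside the WT range, which WT water 6 alone stretched upward, and the call (0.96 ± 0.30, adjusted p = 0.034) was lost without APP/PS1 water 1 or 3 or any of WT water 1 to 5, with adjusted p up to 0.168. Isg15 itself was at 2.47, 3.56 and 6.03 TPM (lowest, median and highest) in WT, 5.28, 6.25 and 4.34 TPM in APP/PS1 water and 9.73, 4.38, 8.62 and 8.77 TPM in the trazodone libraries. The WT and APP/PS1 water values overlapped (0.49 ± 0.27, adjusted p = 0.218).

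Trim30a was at 1.23, 2.43 and 3.14 TPM (lowest, median and highest library) in WT water, at 6.79, 6.66 and 5.17 TPM in APP/PS1 water 1 to 3 and at 4.01, 3.11, 5.16 and 4.696 TPM in APP/PS1 trazodone 1 to 4. Trim30a, a TRIM protein that limits Toll-like receptor signalling in mouse cells, was above WT in all APP/PS1 water libraries, and all 4 trazodone libraries lay below all 3 APP/PS1 water libraries (1.302 ± 0.22, adjusted p = 0.000954 for APP/PS1 water against WT). Trim25, the ubiquitin ligase that activates RIG-I, went the other way. It was at 3.43, 4.29 and 5.901 TPM (lowest, median and highest) in WT and 2.26, 1.11 and 2.47 TPM in APP/PS1 water, with no overlap, and at 2.68, 5.41, 6.42 and 1.92 TPM in the trazodone libraries, which fell on either side. Its log2 fold change in APP/PS1 water was -1.03 ± 0.31, adjusted p = 0.0254, and -0.89 with adjusted p = 0.0602 after the correction for GC content and length, so the only call of a decrease did not hold there; it was also lost without APP/PS1 water 2 (adjusted p = 0.140).

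Parp14, a mono-ADP-ribosyltransferase, and Parp9, which works in a complex with the ubiquitin ligase Dtx3l, rose (0.63 ± 0.17, adjusted p = 0.0186 and 0.55 ± 0.17, adjusted p = 0.0333). Dtx3l gave 0.14 ± 0.15, adjusted p = 0.53; its gene overlaps Parp9, and strand use in counting is not stated, so reads of the shared stretch cannot be assigned. Of the membrane and restriction factors, 2 of 4 rose. Ifitm3, which blocks fusion of enveloped viruses and has been reported to bind gamma-secretase, went from 28.7 ± 6.41 TPM to 49.99 ± 1.202 TPM (0.82 ± 0.17, adjusted p = 0.00389). Bst2, or tetherin, which holds virions at the cell surface, gave 0.82 ± 0.22, adjusted p = 0.0159. The antiviral enzyme viperin (Rsad2) gave 0.54 ± 0.21, adjusted p = 0.0874, and its genomic neighbour Cmpk2, a mitochondrial nucleotide kinase, did not pass (-0.02 ± 0.08, adjusted p = 0.902, 95% interval -0.18 to 0.15).

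None of the 3 Schlafen genes tested was called, at log2 fold changes of 0.74 (Slfn8), 0.58 (Slfn2) and 0.32 (Slfn5). Of the 8 other genes tested, 5 rose, and the 3 highest fold changes of the whole set were among them. Ifi44 was at 0.518, 0.825 and 1.42 TPM (lowest, median and highest library) in WT water, at 2.75, 6.04 and 5.27 TPM in APP/PS1 water 1 to 3 and at 3.65, 1.93, 4.79 and 1.67 TPM in APP/PS1 trazodone 1 to 4. The groups of WT and APP/PS1 water did not overlap, and the trazodone libraries lay above WT with a wide spread (1.86 ± 0.31, adjusted p = 0.000748 for APP/PS1 water). Lgals3bp was at 17.7, 21.5 and 38.3 TPM (lowest, median and highest library) in WT water, at 94.2, 79.8 and 67.7 TPM in APP/PS1 water 1 to 3 and at 74.4, 47.5, 54.5 and 80.7 TPM in APP/PS1 trazodone 1 to 4. It encodes a secreted glycoprotein that binds galectins, and both APP/PS1 groups were wholly above WT (1.76 ± 0.23, adjusted p = 0.000133). Ifi27l2a was at 0.811, 1.98 and 3.35 TPM (lowest, median and highest library) in WT water, at 6.601, 9.87 and 5.07 TPM in APP/PS1 water 1 to 3 and at 13.97, 6.898, 13.2 and 11.1 TPM in APP/PS1 trazodone 1 to 4. This small membrane protein was above WT in every APP/PS1 library of both groups (1.65 ± 0.32, adjusted p = 0.0023).

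Ifi27, a paralogue that sits at chr12:103434211-103440239 next to Ifi27l2a at chr12:103442167-103443680 on the opposite strand, had the highest level of the set: 76.6 ± 7.32 TPM in WT, 117 ± 7.25 TPM in APP/PS1 water and 107 ± 12.97 TPM in trazodone (SD; n = 6, 3 and 4). It rose in APP/PS1 water (0.61 ± 0.10, adjusted p = 0.000576). Ifi35 gave 0.68 ± 0.13, adjusted p = 0.00247. Xaf1, Sp100 and Helz2 gave 0.30, 0.33 and -0.08 and were not called. Of the 22 genes called in either direction, 13 kept the call in each of 13 fits, each of which left out 1 library. Besides those named above, Bst2 lost it without APP/PS1 water 2 or 3 (adjusted p up to 0.0793) and Parp14 without APP/PS1 water 1 (0.0917). Ifih1 lost it without APP/PS1 water 1 or 2 or WT water 1, 2, 3 or 5 (up to 0.163), Mx2 without any 1 of the APP/PS1 water libraries or WT water 3 or 5 (up to 0.123), and Parp9 without any 1 of the APP/PS1 water libraries or WT water 1, 2 or 4 (up to 0.144).

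**Figure D2:**
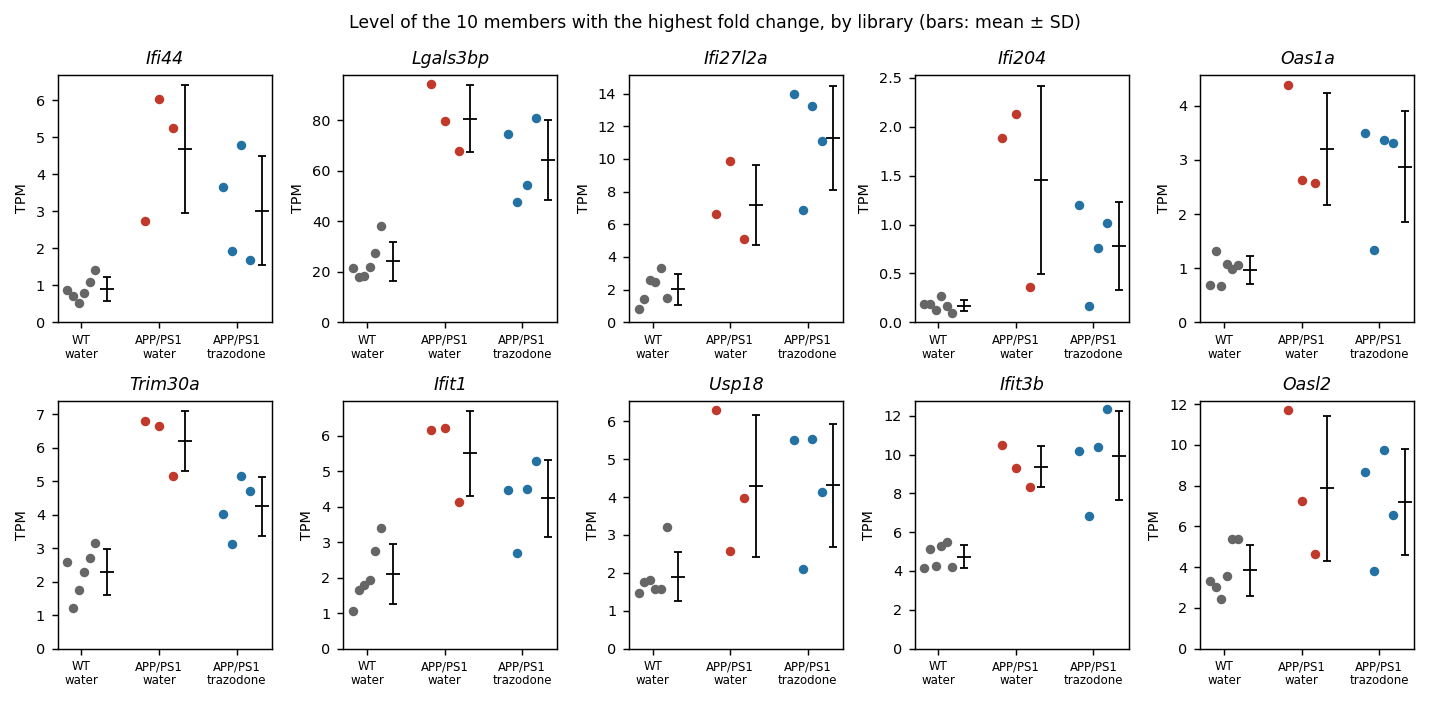
TPM (linear axes from 0) of the 10 genes with the highest log2 fold change in APP/PS1 water against WT water; each point is a library, and the bars are mean ± SD (n = 6, 3 and 4). Ifi44, Lgals3bp, Ifi27l2a and Ifit3b lie above WT in every APP/PS1 library, whereas the lowest trazodone point falls in or at the WT range for Ifi204, Oas1a, Trim30a, Ifit1, Usp18 and Oasl2.

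Trazodone was compared with water within APP/PS1 mice, the comparison that asks what the drug did to these genes. No interferon-stimulated gene was called in either direction: 0 of 46 rose and 0 fell in limma, and 3 passed an unadjusted p under 0.05. In the same comparison 12.5% of all genes were called higher and 3.92% lower. After the correction for GC content and length the count was again 0 and 0, with 4 at an unadjusted p under 0.05, while 2.61% and 1.58% of all genes were called. The median log2 fold change of the 46 was -0.02 against 0.07 for all genes, and -0.09 against -0.01 after the correction; 20 of the 46 were positive. No gene of the set had its trazodone libraries wholly above the water libraries (18.1% of all genes did) and 1 had them wholly below (8.35%).

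The 3 genes at an unadjusted p under 0.05 were all higher with trazodone. Trim25 gave 0.83 ± 0.33, adjusted p = 0.105, Irf1 0.30 ± 0.12, adjusted p = 0.128 and Irf7 0.52 ± 0.22, adjusted p = 0.137. After the correction for GC content and length, the log2 fold changes were 0.74 (adjusted p = 0.216), 0.12 (adjusted p = 0.650) and 0.27 (adjusted p = 0.596) in the same order. Irf7 was at 4.12, 2.11, 4.33 and 5.03 TPM in the trazodone libraries against 2.38 to 2.56 TPM in APP/PS1 water, so that trazodone 1, 3 and 4 were above and trazodone 2 below. The gene body of Irf7 overlaps that of Phrf1, whose reads cannot be told apart without strand. Without trazodone 2, and without that correction, Irf7 was called higher (0.75, adjusted p = 0.0134). Trim25 was called higher without trazodone 4 (1.10, adjusted p = 0.0291).

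Of the 10 genes with the highest fold changes in APP/PS1 water against WT, 7 had a negative and 3 a positive log2 fold change with trazodone, and none was called. These 10 were picked by high values in the same APP/PS1 water libraries that are the baseline here, so the choice alone favours negative signs. Trim30a, the gene wholly below water, gave -0.51 ± 0.24 with a 95% interval of -1.03 to 0.01 (adjusted p = 0.174). Ifi44 gave -0.60 ± 0.33 (-1.31 to 0.11), Ifi204 -0.53 ± 0.38 (-1.34 to 0.28), Ifit1 -0.36 ± 0.29 (-0.98 to 0.26) and Lgals3bp -0.34 ± 0.24 (-0.87 to 0.18). On the other side, Ifi27l2a gave 0.62 ± 0.35 (-0.13 to 1.37). Nearer to 0 were Usp18 at 0.01 ± 0.33 (-0.69 to 0.71), Ifit3b at 0.06 ± 0.17 (-0.32 to 0.43), Oasl2 at -0.10 ± 0.34 (-0.84 to 0.63) and Oas1a at -0.16 ± 0.28 (-0.77 to 0.44). Isg15, which had not been called in APP/PS1 water, gave 0.49 ± 0.29 (-0.13 to 1.12). These intervals leave room for moderate changes either way, and a missed threshold does not show that trazodone left a gene as it was. Without APP/PS1 water 3, Ifi204 was called lower (-1.05, adjusted p = 0.0480).

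Against WT water, the APP/PS1 mice given trazodone had 11 of 46 genes called higher and none lower (1.97% and 0.258% of all genes), and 14 and none after the correction for GC content and length (2.23% and 0.378%). The log2 fold change was positive for 44 of 46, with a median of 0.60 against -0.04 for all genes. The trazodone libraries lay wholly above WT for 12 genes and below for none (3.25% and 1.83% of all genes). Both comparisons with WT share the WT libraries, so their values are given side by side. Ifi27l2a was highest at 2.27 ± 0.29, adjusted p = 0.000395, beside 1.65 in APP/PS1 water. Lgals3bp gave 1.41 ± 0.21, adjusted p = 0.00119 beside 1.76, Ifi44 1.26 ± 0.28, adjusted p = 0.0291 beside 1.86 and Oas1a 1.16 ± 0.24, adjusted p = 0.0178 beside 1.32.

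Bst2 gave 1.05 ± 0.20, adjusted p = 0.011 beside 0.82 in APP/PS1 water, and Ifit3b 0.97 ± 0.15, adjusted p = 0.00161 beside 0.92. The others called against WT were Ifit3 (0.73), Ifi35 (0.66), Irgm1 (0.60), Ifi27 (0.48) and Eif2ak2 (0.58 ± 0.14, adjusted p = 0.0487). Isg15, 7.88 ± 2.38 TPM in trazodone against 3.76 ± 1.34 TPM in WT, just missed the threshold (0.98 ± 0.25, adjusted p = 0.0601). The count depended on single libraries: without trazodone 2 it was 17, with Irf7, Isg15, Usp18, Gbp3, Ifit1, Parp14 and Ifitm3 gained and Eif2ak2 lost. Without trazodone 1 or 4 it was 6 or 7. Of all genes, 1.69% were called higher without trazodone 2, and 1.35% or 1.46% without trazodone 1 or 4. Eif2ak2, close to the threshold, lost its call without any 1 of 11 libraries (adjusted p up to 0.147), and Ifi44 without WT water 1, 2, 3 or 4 or trazodone 1 or 3 (up to 0.119). Bst2 and Irgm1 lost theirs without trazodone 1 or 4 (up to 0.0533 and 0.0571), and Oas1a without trazodone 1, 3 or 4 (up to 0.0811).

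**Figure D3:**
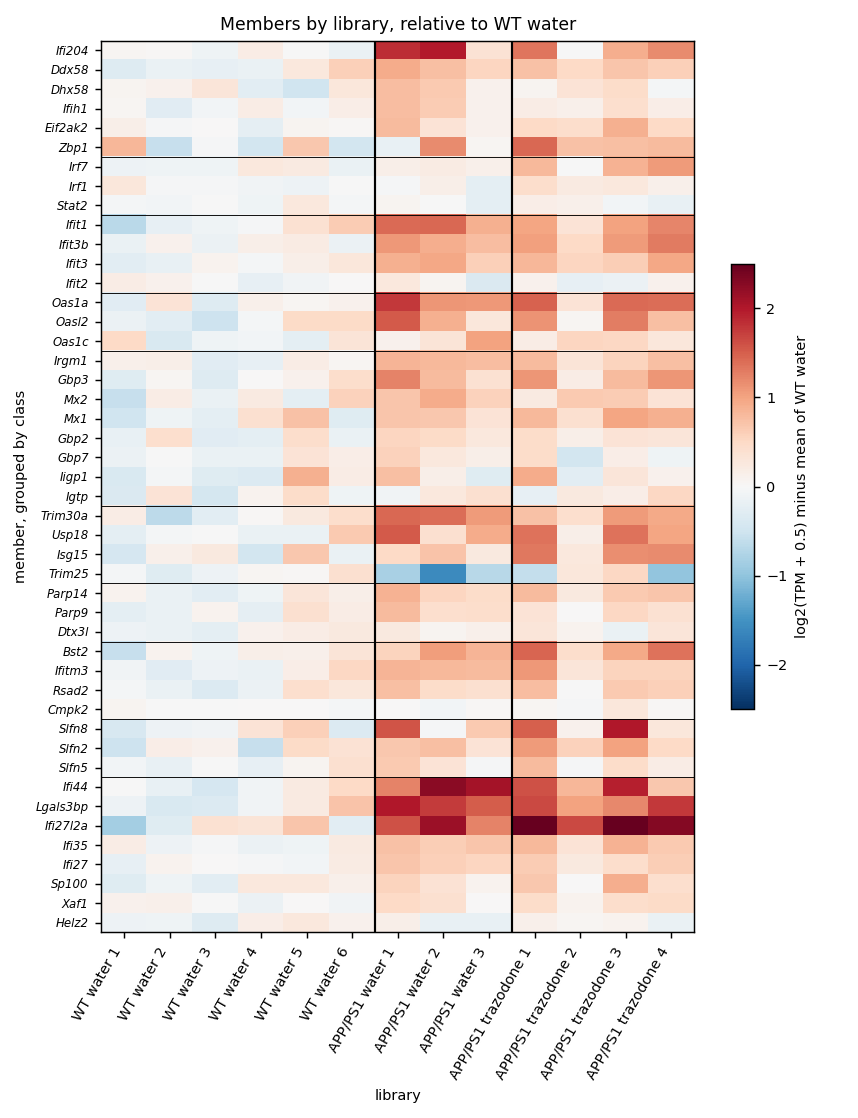
Level of each of the 46 tested genes in each of the 13 libraries, as log2(TPM + 0.5) minus the mean of the 6 WT libraries; black lines separate classes and groups. The APP/PS1 columns are mostly red, APP/PS1 trazodone 2 is the palest of them, and Trim25 is blue in APP/PS1 water and in trazodone 1 and 4.

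Within groups, certain libraries were often the low or the high one for these genes. APP/PS1 trazodone 2 held the lowest TPM of its group for 35 of the 46 genes (76.1%), whereas it was lowest for 17.0% of all genes tested. In APP/PS1 water, library 3 was lowest for 33 (71.7%, against 44.5% of all genes) and library 1 highest for 30 (65.2%, against 43.1%). Among the WT libraries, 5 was highest for 18 and 6 for 16 (39.1% and 34.8%, against 23.1% and 24.0%). The summed level of the set was 298.5 to 384 TPM in WT, 581, 539 and 479 TPM in APP/PS1 water 1 to 3, and 578, 408, 513 and 540.5 TPM in trazodone 1 to 4, so every APP/PS1 library exceeded every WT library. The 46 genes are not independent of each other, and these shares are a description.

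**Figure D4:**
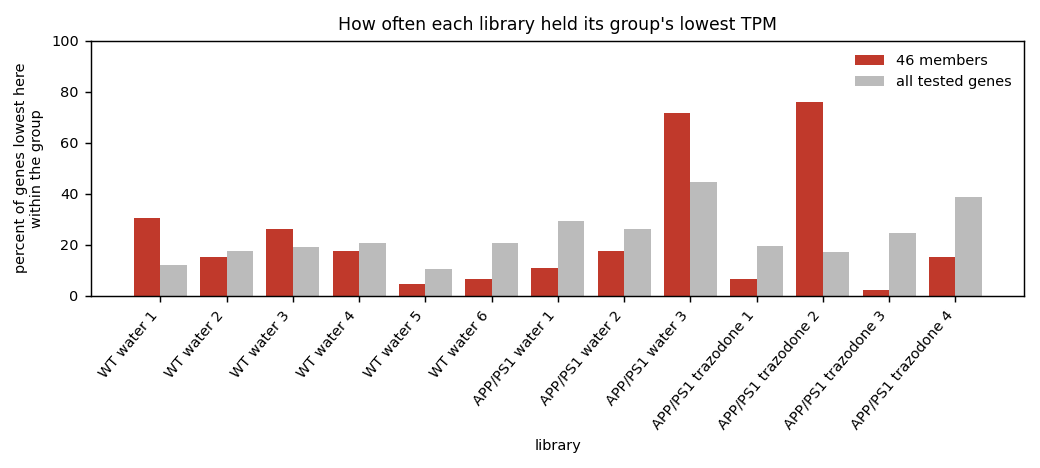
Percent of genes for which each library held the lowest TPM of its group, for the 46 interferon-stimulated genes (red) and all tested genes (grey); bars start at 0. APP/PS1 trazodone 2 reaches 76.1% for the set against 17.0% for all genes.

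Microglia markers, like the set, summed to more in every APP/PS1 library than in any WT library. Within the APP/PS1 groups the order of libraries differed. APP/PS1 trazodone 1 had the lowest mean log2 level of its group for the microglia markers (5.52) and the highest for the set (2.75). For the markers, though, trazodone 1 to 3 lay close together, at 5.52 to 5.56. Of 15, 11 rose in APP/PS1 water (median 1.39) and 11 in APP/PS1 trazodone (median 1.02) against WT, and with trazodone against water 1, the lysophospholipid receptor Gpr34, fell (-0.77 ± 0.17, adjusted p = 0.00688; -0.48, adjusted p = 0.0845 after the correction for GC content and length) and none rose. Cx3cr1, P2ry12, Sall1 and Fcrls were not called against WT in either APP/PS1 group. Of all genes, 6.19% rose in APP/PS1 water and 1.97% in APP/PS1 trazodone against WT, and 3.92% fell with trazodone against water. Of the markers called in APP/PS1 water against WT, Trem2 had the highest log2 fold change (2.685) and Tmem119 the lowest (0.58). The summed level of the 15 markers was 409 to 505 TPM in WT, 1216 to 1554 TPM in APP/PS1 water and 1112 to 1303 TPM in trazodone. By summed level, APP/PS1 trazodone 2 was the lowest of its group for the markers (1112 TPM) and for the set (408 TPM). No defining marker of microglia was listed at 0 throughout. In APP/PS1 trazodone 2 the mean log2 level of these markers was 5.55, inside the 5.52 to 5.63 of the other trazodone libraries. That of the interferon-stimulated genes was 2.25 against 2.57 to 2.75. The part of microglia number in the rise was not tested.

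**Figure D5:**
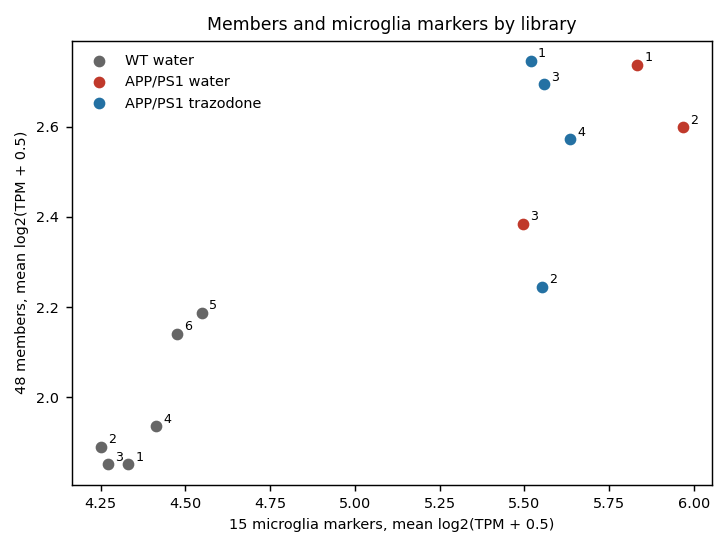
Mean log2(TPM + 0.5) of the 48 interferon-stimulated genes with an entry (vertical) against that of 15 microglia markers (horizontal); each point is a library with its replicate number. WT libraries lie at lower left, and APP/PS1 trazodone 2 sits below the other trazodone libraries at a like level of these markers.

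Of 10 astrocyte markers 4 rose in APP/PS1 water, Gfap most (2.66 ± 0.17, adjusted p = 3.69e-07), with sums of 2060 to 2382 TPM in WT and 3004 to 3459 TPM; 3 rose in trazodone against WT, and 1, Aldoc, rose with trazodone against water (0.43 ± 0.09, adjusted p = 0.00584), which was not called after the correction for GC content and length (0.28, adjusted p = 0.142). Of 12 neuron markers 6 fell in APP/PS1 water and 2 after the correction; 6 rose with trazodone against water, 1 after the correction. Mbp, the only one of 8 oligodendrocyte markers called, fell in APP/PS1 water (-0.74 ± 0.20, adjusted p = 0.0177) and rose with trazodone (0.94 ± 0.22, adjusted p = 0.0107), neither of which was called after the correction (-0.59, adjusted p = 0.0801, and 0.81, adjusted p = 0.0578). None of 12 endothelial, 8 border macrophage, 5 tested leukocyte, 10 meningeal and choroid or 4 tested erythroid markers was called in any comparison. Leukocyte markers (18 in all) summed to 8.15 to 20.8 TPM in WT, 6.55 to 15.9 in APP/PS1 water and 7.77 to 13.4 in trazodone, and border macrophage markers to 19.2 to 28.8 TPM over all libraries. Beside these counts, 6.19% of all genes rose and 17.5% fell in APP/PS1 water, and 12.5% rose with trazodone against water. After the correction, 6.30% fell in APP/PS1 water and 2.61% rose with trazodone against water. The part of these cell types in the results was not tested.

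Other genes of the pathway were counted in the same fit. Of 41 further interferon-stimulated genes tested, 11 rose and 2 fell in APP/PS1 water (median 0.48). With trazodone against water 1 rose, and in trazodone against WT 7 rose. Of all genes, 6.19% rose and 17.5% fell in APP/PS1 water, 12.5% rose with trazodone against water and 1.97% rose in trazodone against WT. After the correction for GC content and length, 12 rose and none fell in APP/PS1 water (6.38% and 6.30% of all genes). B2m, which encodes the small subunit of class I MHC molecules, went from 206 to 556 TPM in APP/PS1 water (1.44 ± 0.18, adjusted p = 9.06e-05) and was 421 TPM with trazodone. The immunoproteasome subunit Psmb8 gave 0.89 ± 0.12, adjusted p = 0.000142, Phf11d 1.54 ± 0.24, adjusted p = 0.000455 and Phf11b 1.302 ± 0.19, adjusted p = 0.000298. Pml and Uba7 fell in APP/PS1 water (-0.66 and -0.22), neither did so after the correction for GC content and length, and Pml was the gene that rose with trazodone (0.50 ± 0.14, adjusted p = 0.0315), likewise not after the correction (0.24, adjusted p = 0.385); they are named after their values were seen.

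Of 17 adaptors and kinases of nucleic acid sensing, 5 rose and none fell in APP/PS1 water (median 0.17), among them the endosomal RNA receptor Tlr7 (1.78 ± 0.31, adjusted p = 0.00114), its chaperone Unc93b1 (0.88 ± 0.09, adjusted p = 1.63e-05), Irf5 (1.14 ± 0.14, adjusted p = 0.000121) and the DNA-pathway adaptor Sting1 (0.65 ± 0.17, adjusted p = 0.0126; 0.0779 without APP/PS1 water 2). After the correction for GC content and length, 4 of the 17 rose and none fell in APP/PS1 water. Of all genes, 6.19% rose and 17.5% fell there before the correction. None of the 17 was called with trazodone against water, where 12.5% of all genes rose and 3.92% fell. Of 12 regulators of interferon signalling, 3 rose and 1 fell (median 0.16): the phosphatases Ptpn6 (1.48 ± 0.14, adjusted p = 1.12e-05) and Ptpn2 (0.32 ± 0.08, adjusted p = 0.0105; 0.15, adjusted p = 0.199 after the correction for GC content and length) and the factor Irf8 (1.502 ± 0.14, adjusted p = 1.48e-05) rose. Irf2bp1 fell (-0.49 ± 0.10, adjusted p = 0.0027) and rose with trazodone (0.46 ± 0.10, adjusted p = 0.00953), and gave -0.02 and -0.04 after the correction for GC content and length. Irf8 and Ptpn6 are also expressed by microglia.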

How the data were processed

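Poly(A) RNA of 13 cortex libraries was sequenced as paired ends on a NextSeq or NovaSeq instrument, per the labels. The submitters' processing notes name fastp, STAR, DESeq2 and GRCm38 (mm10); their versions and the annotation are not given in the sources used. The authors deposited TPM, which are the main values, and FPKM (fragments scaled by library size and gene length), used as an alternative. TPM equal FPKM rescaled to within 0.0087. The tables give no counts, so depth was estimated and no counting interval is given.

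The test was run on 18612 genes whose TPM averaged 0.5 or more, by limma 3.58.1 (R 4.3.3) on log2(TPM + 0.5), in a single fit of all groups, two-sided, eBayes with trend, Benjamini-Hochberg adjusted p under 0.05. Fold changes are on that scale and understate those of low genes. To correct for GC content and length, a loess trend (span 0.4) was subtracted per library over 18253 genes. Coordinates and shared 100-base windows come from GENCODE M21, promoters from RefSeq GRCm38.p6. Of the 53832 entries, 25412 carry IDs of merged transcript models, and many entries of the set are among them. Entries were matched to GENCODE by gene name, so the value of a merged model can include transcripts outside the annotated gene. The limma steps were tested on simulated data. In trazodone against water, they found 80% of changes of log2 1 and 29% of log2 0.5, and 6.84% of calls were false. In APP/PS1 water against WT these were 83%, 36% and 6.30%, and in trazodone against WT 87%, 36% and 3.15%. Changes of log2 0.5 were therefore mostly missed.

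All 50 genes were accounted for; values per library went to the 10 highest fold changes in APP/PS1 water and to genes singled out after their values were seen (Irgm1, Irf7, Isg15 and Trim25); up to 4 genes per list were named. The genes and lists were chosen with earlier results of these data known. Alternatives were pseudocounts, minimums, FPKM, median-ratio and quantile scaling, the GC and length correction, fits of 2 groups, replicate blocks, robust eBayes, a fold threshold and leaving out each library.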

Additional observations from a re-analysis of the deposited data

Results flagged for a closer look

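In 8 of 92 groups of 4 or 6 libraries, a library stood far from the rest of its group for an interferon-stimulated gene, by the gap to its nearest neighbour as a share of the group's range; chance gives about 1 in 20 such groups. APP/PS1 trazodone 2 was low for Isg15 (4.38 TPM, the others 8.62 to 9.73), Oas1a (1.33 TPM, the others 3.31 to 3.49) and Xaf1 (9.67 TPM, the others 12.5 to 12.8). APP/PS1 trazodone 3 was high for Eif2ak2 (7.83 TPM, the others 5.62 to 5.91), and APP/PS1 trazodone 1 for Zbp1 (1.73 TPM, the others 0.861 to 0.922). Among WT libraries, number 1 was high for Irf1 (11.3 TPM, the others 8.44 to 9.22), number 5 for Stat2 (25.1 TPM, the others 19.3 to 20.7) and number 6 for Usp18 (3.20 TPM, the others 1.47 to 1.82).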

How the results depend on the processing

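Under the alternatives, none of the calls among the 46 genes changed direction. With a replicate block by the number in library names, 11 members rather than 21 were called higher in APP/PS1 water against WT. The share of all genes was 3.18% rather than 6.19%. In trazodone against WT, 6 rather than 11 were called higher (1.155% rather than 1.97% of all genes). In trazodone against water, 1 (Isg15) rather than 0 was called higher (7.71% rather than 12.5% of all genes). With a replicate block by title number, 1 (Lgals3bp) was called lower in trazodone against water, as were 3.025% of all genes. Same-numbered libraries correlated above 0.1 in 2 of 10 pairs under either numbering. With so few pairs, a link between same-numbered libraries, such as a shared batch, cannot be judged. Trim25, the 1 gene called lower in APP/PS1 water, was not called without a minimum, after the GC and length correction or under either block, where the count was 0. Leaving out single libraries gave 14 to 22 higher and 0 to 1 lower in APP/PS1 water against WT, 0 to 1 higher and 0 to 1 lower in trazodone against water, and 6 to 17 higher in trazodone against WT. In APP/PS1 water against WT, median-ratio scaling called 26 higher and quantile normalization or FPKM 24, while all genes split into 10.8% higher and 11.04% lower under median-ratio scaling, 11.4% and 11.1% under quantile normalization and 10.2% and 11.8% in FPKM. Trazodone against water split all genes into 8.79% and 7.44% under median-ratio scaling. In APP/PS1 water against WT, 11 of the 22 calls held under all 25 alternatives, and 4 of 11 in trazodone against WT. Except where the construction shows it (fewer libraries), the cause was not tested. Low genes are limited by depth.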
